A study of Mus musculus with 42 samples.

Results

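The genes described here are the 3 members of the myeloid translocation gene (MTG) family, Cbfa2t3 (MTG16, also written Mtg16), Cbfa2t2 (MTGR1) and Runx1t1 (MTG8), together with 5 genes of the corepressors that MTG proteins recruit, namely Hdac1, Hdac2, Hdac3, Ncor1 and Sin3a. They were chosen by name, as rows of the 9 expression tables whose symbol is on this list, and all 8 of the 8 were present among the 20462 genes that the tables hold. The question was whether the paralogs or the corepressor genes changed in mouse colon when Cbfa2t3 was disrupted.

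MTG proteins do not bind DNA themselves. They are scaffolds that dock on DNA-binding factors such as the E proteins and bring in histone deacetylases and the large corepressors NCOR1 and SIN3A, so that transcription of the factor's target genes is held down. In the intestine MTG16 and MTGR1 are best known for their part in stem cell and secretory lineage decisions, whereas MTG8 is best known from the RUNX1 fusion of acute myeloid leukemia and from the nervous system.

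The point mutation studied, P209T, replaces a proline with a threonine in the conserved N-terminal domain through which MTG16 contacts E proteins. The stretch around this codon is shown for the 3 family members, because a paralog with the same residues is the natural comparison when Cbfa2t3 is mutated. Each sequence runs 5′ to 3′ on the coding strand, and the capitals mark the proline codon aligned to codon 209 of Cbfa2t3.
Cbfa2t3: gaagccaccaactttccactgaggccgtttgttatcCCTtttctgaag
Cbfa2t2: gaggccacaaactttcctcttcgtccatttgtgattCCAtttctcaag
Runx1t1: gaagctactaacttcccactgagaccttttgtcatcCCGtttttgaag
In GRCm38 these are coding exon sequence at chr8:122642964-122643011 for Cbfa2t3 (minus strand, exon 5 of 12), at chr2:154510550-154510597 for Cbfa2t2 (plus strand, exon 4 of 11) and at chr4:13841840-13841887 for Runx1t1 (plus strand, exon 5 of 12). The numbering holds for the Cbfa2t3 transcript of 620 codons in GENCODE vM21, and the other two coding transcripts with a complete reading frame have another residue at position 209. All 3 genes encode proline there, and in the 41 residues centered on it Cbfa2t2 matched Cbfa2t3 at 39 and Runx1t1 at 40. Over the whole protein 357 of 576 aligned residues (61.98%) were identical between Cbfa2t3 and Cbfa2t2, and 438 of 590 (74.24%) between Cbfa2t3 and Runx1t1.

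RNA came from mice of the C57/BL6 background, at least 8 weeks old, of 2 separately bred colonies. One colony gave Mtg16-/- mice (labelled Mtg16-null) and their wild-type (WT) littermates, and the other gave mice homozygous for P209T (Mtg16T/T, labelled T/T) and their own WT littermates. Untreated (baseline) crypts, isolated by chelation, were of the proximal colon (the 5 cm below the cecum) in 2 Mtg16-/-, 2 Mtg16T/T and 2 WT libraries of each colony, and of the distal colon (the 5 cm above the anus) in 4 Mtg16-/- with 4 WT and 4 Mtg16T/T with 3 WT libraries. Injured distal crypts were taken after 5 days of 2% dextran sodium sulfate (DSS, a chemical that damages the colonic epithelium) and 4 days of water, in 4 Mtg16-/- with 3 WT and 3 Mtg16T/T with 3 WT libraries. Distal tumors of 3 Mtg16T/T and 3 WT mice followed 10 mg/kg of the carcinogen azoxymethane (AOM) and 3 cycles of 3% DSS, each of 4 days with 16 days of water. Tumors were whole tissue and not isolated crypts. The sources do not say which exons the Mtg16-/- allele lacks or whether a library held RNA of more than 1 mouse, so p-values measure the spread between libraries.

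Values are normalized counts, that is, reads per gene divided by a size factor of the library, and every table has size factors of its own. A gene was called when its adjusted p (limma's trend method on log2 of the normalized count plus 1, with Benjamini-Hochberg adjustment over all genes tested) was under 0.05, and log2 fold changes refer to that scale. Whole reads could be recovered for 40 of the 42 libraries, and the 38 that were fitted together (all but the proximal mutant libraries) held 32231389 to 74661922 reads each. The labelled distal library of Mtg16-/- replicate 2 at baseline stood apart, since its regional genes had proximal values. On a scale where the mean of WT proximal crypts is 0 and that of WT distal crypts is 1 (127 distal and 146 proximal genes that differ at least 8-fold in WT), it lay at 0.08, against 0.95 to 1.03 for the other baseline distal libraries. Hoxd13, a gene of the posterior gut, was at 0 in it and at 3576 to 6654 in the other libraries of its table. Its effect on results that include it is given where the value or the call moved. In bulk samples, fewer cells of a type and less RNA per cell cannot be told apart.

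Cbfa2t3 mRNA was lower in Mtg16-/- crypts after DSS, and it was the only one of the 8 genes called between genotypes within a table. In regenerating distal crypts it was at 427, 594, 595 and 486 in the Mtg16-/- libraries and at 2019.5, 1845 and 2519 in the WT libraries. Each mutant library lay below each WT library. Cbfa2t3 fell by 2.02 on the log2 scale (SE 0.19, adjusted p = 0.0029, to 0.247 of the WT level), and the exact two-sided permutation test gave p = 0.0286, the smallest it can give. Of the genes tested there 0.629% were called and 11.4% had groups that did not overlap. Of the 8 members, Cbfa2t3 (lower) and Runx1t1 (higher) did not overlap. The fall was called under all 15 alternatives, among them the fit with the 3 pairs of same-numbered libraries as blocks (replicate block, adjusted p = 0.00029), in which 8.78% of all genes were called. The summed level of 7 myeloid markers was 6128 to 19612 in these Mtg16-/- libraries and 945 to 3559 in WT. With the replicate block, 3 of 7 goblet markers were lower and 1 higher, and 3 of 5 B and plasma cell markers rose. The part of these cells in the result was not tested.

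In untreated distal crypts the same comparison gave 694, 1095, 424 and 688 in Mtg16-/- (the library of 1095 is the one with proximal regional genes) and 1809, 1666, 1027 and 1555 in WT. The groups overlapped by that library alone. The log2 difference of −1.11 (SE 0.29) was not called (adjusted p = 0.30), whereas DESeq2 on recovered reads called the difference. Without that library Cbfa2t3 fell by 1.33 (SE 0.23, adjusted p = 0.036), and the groups did not overlap. Of all genes 0.239% were called and 3.75% did not overlap with all libraries, against 1.04% and 6.52% without that library. In proximal crypts the pair of Mtg16-/- libraries was at 631 and 1057 and the WT pair at 1634 and 3221, a log2 difference of −1.49 (SE 0.36, adjusted p = 0.44), which was called under 1 of 9 alternatives. Groups of 2 against 2 cannot reach an exact p under 0.333, and here 35.6% of all genes did not overlap and 0.0645% were called, which is the background for the 6 of 8 members without overlap in proximal crypts.

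Averaged over both distal conditions in the fit across 38 libraries, the Mtg16-/- effect on Cbfa2t3 was −1.56 (SE 0.16, adjusted p = 1.2e-07), or 0.339 of the WT level. This fit called 4.57% of genes. The call held under each of its 21 alternatives, and the value without Mtg16-/- baseline replicate 2 was −1.67. Neither the difference of the Mtg16-/- effect between DSS and baseline (−0.91, adjusted p = 1, and −0.68, adjusted p = 0.67, without that library) nor that between proximal and distal crypts (−0.38, and −0.16 without that library, adjusted p = 1 in both) was called, in tests that called 0% and 0.0149% of genes. Reads of Cbfa2t3 thus remained in every Mtg16-/- library, at 424 to 1095 normalized counts in the 3 tables. The values do not say which part of the gene these reads come from.

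In Mtg16T/T tissue, in contrast, the Cbfa2t3 values lay above those of WT in distal crypts, proximal crypts and tumors, and overlapped with them after DSS. None of these differences was called by limma. Distal Mtg16T/T crypts were at 1919, 1813, 1509 and 2196, and their WT littermates at 937, 985 and 1040.4. The 4 mutant libraries were all above the 3 WT libraries, with a log2 difference of 0.90 (SE 0.13) and an exact p = 0.0286, the smallest possible, but the adjusted p over all genes was 0.25. DESeq2 on recovered reads called this difference, whereas no other alternative did, with edgeR or limma. Tumors were at 1641, 1931 and 1825 in Mtg16T/T and at 1475, 1115 and 1263 in WT, also without overlap (0.49, SE 0.13, adjusted p = 1, exact p = 0.1, the smallest possible). Proximal crypts gave 2529 and 2988 against 2049 and 2034 (0.43, SE 0.11, adjusted p = 0.23). After DSS the groups overlapped, at 3073, 2956 and 3125 in Mtg16T/T and 3126, 3087 and 2244 in WT (0.13, SE 0.19, adjusted p = 0.84).

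These tables held few calls of any kind. Genes called made up 0.232% in proximal crypts, 0.0369% in distal crypts, and 0% both after DSS and in tumors, where limma gave an unadjusted p under 0.05 for 1197 of 13648 and 392 of 15900 genes. In these last comparisons edgeR on recovered reads also called 0 genes, and DESeq2 called 154 higher and 177 lower after DSS and 11 higher and 13 lower in tumors. Genes without overlap made up 45.5%, 7.7%, 13.7% and 5.52% in the same order, against 5, 1, 0 and 1 of the 8 members. Averaged over the 3 distal conditions, the Mtg16T/T effect on Cbfa2t3 was 0.52 (SE 0.14, adjusted p = 0.15) in a fit that called 0.223% of genes, with an interval of 0.24 to 0.80. Its differences between proximal and distal crypts (−0.47, adjusted p = 0.90), between DSS and baseline (−0.77, adjusted p = 0.29) and between tumor and baseline (−0.41, adjusted p = 0.78) were not called, in tests that called 0.0153%, 0.0604% and 0% of genes.

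The effects of the 2 alleles on Cbfa2t3 differed after DSS. The Mtg16-/- effect minus the Mtg16T/T effect on Cbfa2t3 was −2.15 (SE 0.26, adjusted p = 0.0071) after DSS, in a test that called 0.0148% of genes. The corresponding difference at baseline was −2.01 in distal crypts (adjusted p = 0.46, with 0% of genes called) and −1.92 in proximal crypts (adjusted p = 0.16, with 0.242% called). Without Mtg16-/- baseline replicate 2 the distal difference was −2.23 and was called (adjusted p = 0.0070). Cbfa2t3 was the only member called in these tests, which compare animals of different colonies and sequencing requests.

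**Figure D1:**
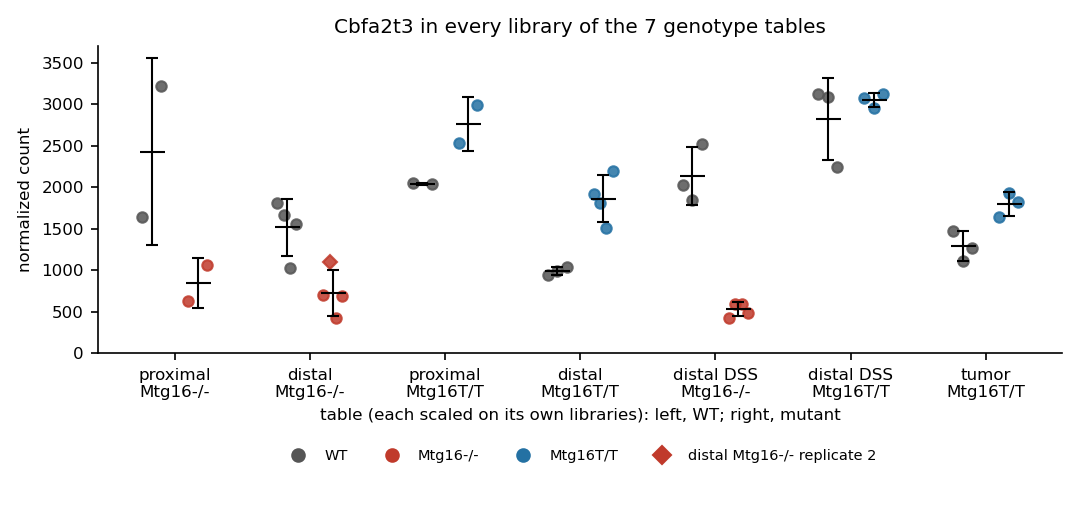
Cbfa2t3 normalized count (linear axis) of each library in the 7 genotype comparisons, with points for libraries and bars for the mean ± 1 SD of the group. The Mtg16-/- libraries after DSS lie between 427 and 595, below all 3 WT libraries, and the Mtg16T/T libraries of distal crypts lie between 1509 and 2196, above their WT libraries.

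Of the paralogs, Runx1t1 was higher in Mtg16-/- crypts in each of the 3 tables, without overlap between genotypes, although its level was very low. Of all genes tested, 2.58% were higher without overlap in distal crypts, 6.18% after DSS and 17.5% in proximal crypts. Runx1t1 was at 48.7, 42.9, 40.7 and 72.0 in distal Mtg16-/- crypts against 23.6, 9.26, 14.3 and 14.6 in WT. The library with proximal regional genes, at 42.9, lay among the others. The log2 difference was 1.70 (SE 0.34), which was not called (adjusted p = 0.13, and 0.079 without that library). The exact permutation test gave p = 0.0286, the smallest possible. DESeq2 on recovered reads called it, which was the only 1 of 90 alternative fits by genotype that called Runx1t1.

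After DSS Runx1t1 was at 29.0, 47.9, 45.4 and 33.7 in Mtg16-/- and at 15.1, 20.5 and 17.3 in WT (1.08, SE 0.35, adjusted p = 0.21, exact p = 0.0286). The lowest mutant library was 29.0 and the highest WT library 20.5. In proximal crypts the values were 34.7 and 44.9 against 9.45 and 13.4 (1.72, SE 0.51, adjusted p = 0.64). Averaged over both distal conditions, the effect was 1.39 (SE 0.40, 95% interval 0.58 to 2.21, adjusted p = 0.039), a 2.63-fold higher level. This call was narrow, since it held in only 3 of 15 fits that each left out 1 library (adjusted p from 0.038 to 0.086, and 0.047 without Mtg16-/- baseline replicate 2) and was lost with a pseudocount of 0.1 (0.065). It held with edgeR (0.031), with DESeq2 (0.0065) and with the length and GC trend of each library removed (0.0068).

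With Mtg16T/T, Runx1t1 showed no such pattern in distal crypts, at 14.4, 27.6, 22.9 and 5.10 against 9.40, 30.4 and 11.7 in WT (−0.01, SE 0.63, adjusted p = 1). The 2 proximal Mtg16T/T libraries, at 32.8 and 23.1, were above the WT pair at 11.1 and 11.2 (1.24, SE 0.47, adjusted p = 0.39). After DSS the values were 14.0, 61.5 and 9.31 against 1.41, 1.11 and 14.6, and in tumors 59.9, 103 and 52.9 against 60.0, 38.7 and 34.1. Both pairs of groups overlapped (2.31, SE 1.00, adjusted p = 0.59, and 0.67, SE 0.37, adjusted p = 1). The average over the 3 distal conditions was 1.00 (SE 0.35, adjusted p = 0.56). The difference between the alleles was not called in any segment or treatment, and in distal crypts it was 1.71 with an interval of 0.15 to 3.28 (adjusted p = 0.96), or 1.78 without Mtg16-/- baseline replicate 2. At such low counts a few reads move the value, and the 95% intervals of the Mtg16T/T effect were wide, at 0.10 to 2.38 in proximal crypts, −1.49 to 1.46 in distal crypts, −0.08 to 4.69 after DSS and −0.19 to 1.52 in tumors.

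Marker lists of other cell types are set beside these Runx1t1 values. The summed level of 8 markers of enteroendocrine cells, the hormone-producing cells of the epithelium, was 19740 to 31492 in distal Mtg16-/- crypts and 8325 to 10198 in WT, where 4 of the 8 markers rose and none fell. Without the library with proximal regional genes, the highest of these at 31492, the Mtg16-/- sums were 19740 to 25806 and 8 of 8 markers rose. After DSS it was 15121 to 18590 against 7839 to 12069 (1 of 8 rose, or 5 of 8 with the replicate block), and in proximal crypts 17780 to 29234 against 13191 to 16671 (0 of 8 called). It was also higher in proximal Mtg16T/T crypts, at 20169 to 24718 against 13324 to 16140, and in distal ones it was 9479 to 18509 against 8053 to 9589. In Mtg16T/T after DSS it was 12295 to 16319 against 8080 to 11932, and in tumors 3538 to 7212 against 1072 to 3632. None of the 8 was at 0 throughout a group. The enteric neuron and glia markers that the tables hold (2 of 5 in distal crypts, 4 after DSS and 3 in proximal crypts) summed to 31.4 to 44.5 in distal Mtg16-/- against 25.5 to 39.6 in WT, to 10.9 to 29.0 against 14.7 to 37.4 after DSS, and to 35.9 to 38.0 against 10.3 to 24.0 in proximal crypts. S100b, the glial marker, was at 0 in all Mtg16-/- libraries after DSS and in both proximal WT libraries. Smooth muscle markers summed to 53.9 and 3368 in proximal Mtg16-/- against 69.3 and 79.9 in WT, and to 33.9 and 1269 in proximal Mtg16T/T against 37.2 and 40.0, so that 1 library of each mutant pair was high. Fibroblast markers summed to 125 and 594 against 182 and 190 in proximal Mtg16-/-, to 52.9 and 480 against 57.3 and 75.3 in proximal Mtg16T/T, and to 448 to 4411 against 399 to 490 in Mtg16-/- after DSS. No smooth muscle or fibroblast marker was called in those comparisons, apart from 2 of 4 fibroblast markers that rose after DSS with the replicate block. The part of these cells in the Runx1t1 values was not tested.

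**Figure D2:**
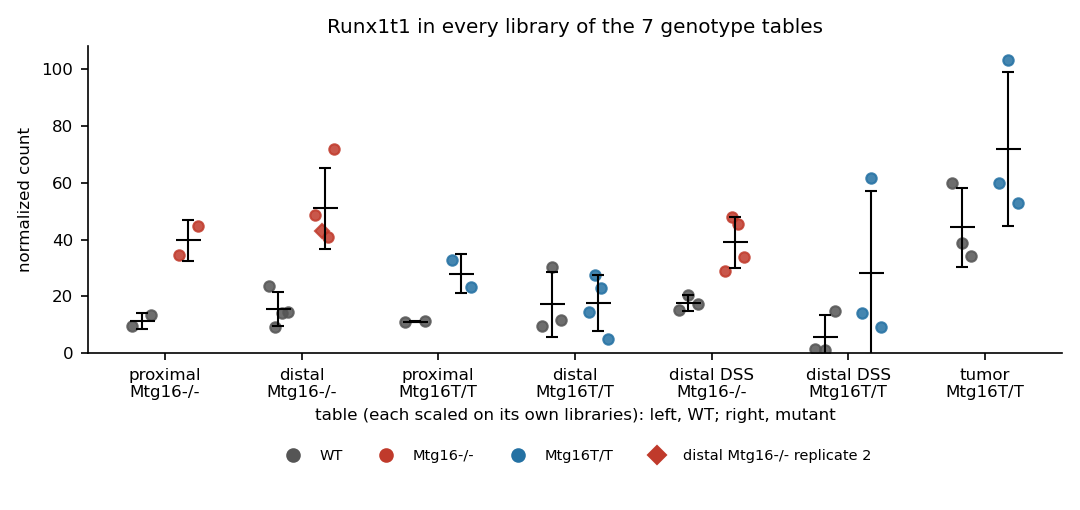
Runx1t1 normalized count (linear axis) of each library in the 7 genotype comparisons, with points for libraries and bars for the mean ± 1 SD of the group. In the 3 Mtg16-/- comparisons each mutant library lies above each WT library, whereas Mtg16T/T and WT libraries overlap in distal crypts, after DSS and in tumors.

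Cbfa2t2, the paralog with a known part in intestinal secretory cells, stayed near its WT level in all 7 genotype comparisons. In distal crypts it was at 1012, 974, 1057 and 1105 in Mtg16-/- and at 1114, 1034, 934 and 991 in WT. In distal Mtg16T/T crypts it was at 863, 936, 822 and 973 against 804, 795 and 903, and in tumors at 1653, 1528 and 1784 against 1646, 1672 and 1625. Mutant and WT libraries overlapped in each of these. In proximal Mtg16-/- crypts they did not, at 1003 and 1103 against 894 and 985 (0.16, adjusted p = 0.94). Its largest difference was −0.22 (SE 0.17, adjusted p = 0.67) after DSS in Mtg16-/-, at 876, 1248, 1072 and 997 against 1167, 1125 and 1357. The 95% intervals of all 7 differences lay within −0.60 to 0.54 on the log2 scale, and for the average over both distal Mtg16-/- conditions within −0.26 to 0.08. None of 91 alternative fits called it.

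The genes of the histone deacetylases and scaffolds were not called in any of the 7 genotype comparisons or in any of the 91 alternatives run for each gene. Hdac1, the catalytic subunit shared by several nuclear complexes, differed by −0.19 to 0.21, with all intervals within −0.56 to 0.74. The upper end came from distal Mtg16-/- crypts, where Hdac1 was at 5154, 10934, 5003 and 4780 against 5296, 5642, 4795 and 5875 in WT. The value of 10934 belongs to the library with proximal regional genes, and without it the difference was −0.11 (95% interval −0.32 to 0.09) rather than 0.17 (−0.40 to 0.74). The smallest adjusted p of these 5 genes and Cbfa2t2 over the 7 comparisons was 0.468, for Hdac1.

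Hdac3 encodes the deacetylase activity of the NCOR1 complex. It differed by −0.05 to 0.19 (intervals within −0.54 to 0.67), and in distal Mtg16-/- crypts it was at 2634, 2706, 2662 and 2832 against 2496, 2671, 2809 and 2782 in WT. Hdac2, the close relative of Hdac1, differed by −0.26 to 0.69, Ncor1 by −0.12 to 0.53 and Sin3a, the scaffold that carries the HDAC1 and HDAC2 enzymes, by −0.08 to 0.24. For these 3 genes the widest intervals were those of Mtg16T/T after DSS, as were the highest values of Hdac2 and Ncor1. Without that table the intervals lay within −0.67 to 0.45 for Hdac2, −0.54 to 0.57 for Ncor1 and −0.33 to 0.59 for Sin3a.

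In the Mtg16T/T libraries after DSS, Hdac2 was at 1873, 2366 and 1005 and in WT at 802, 730 and 1807. Ncor1 was at 7183, 12127 and 4288 against 4035, 3502 and 8820, and Sin3a at 2491, 2859 and 1548 against 1644, 1656 and 2464. The same libraries were low for all 3 genes, namely WT replicates 1 and 2 and Mtg16T/T replicate 3. In those libraries values fell with transcript length, by 0.135, 0.227 and 0.194 on the log2 scale per doubling of length, whereas in the other 3 they were higher for longer transcripts by 0.152, 0.0900 and 0.314. The slopes per 10 points of GC content also differed, at 0.363, 0.575 and 0.430 against −0.315, −0.300 and −0.753 in the other 3. Within-group spread was thus as large as any genotype difference of these genes, which were not called (adjusted p = 0.73, 0.77 and 0.82).

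**Figure D3:**
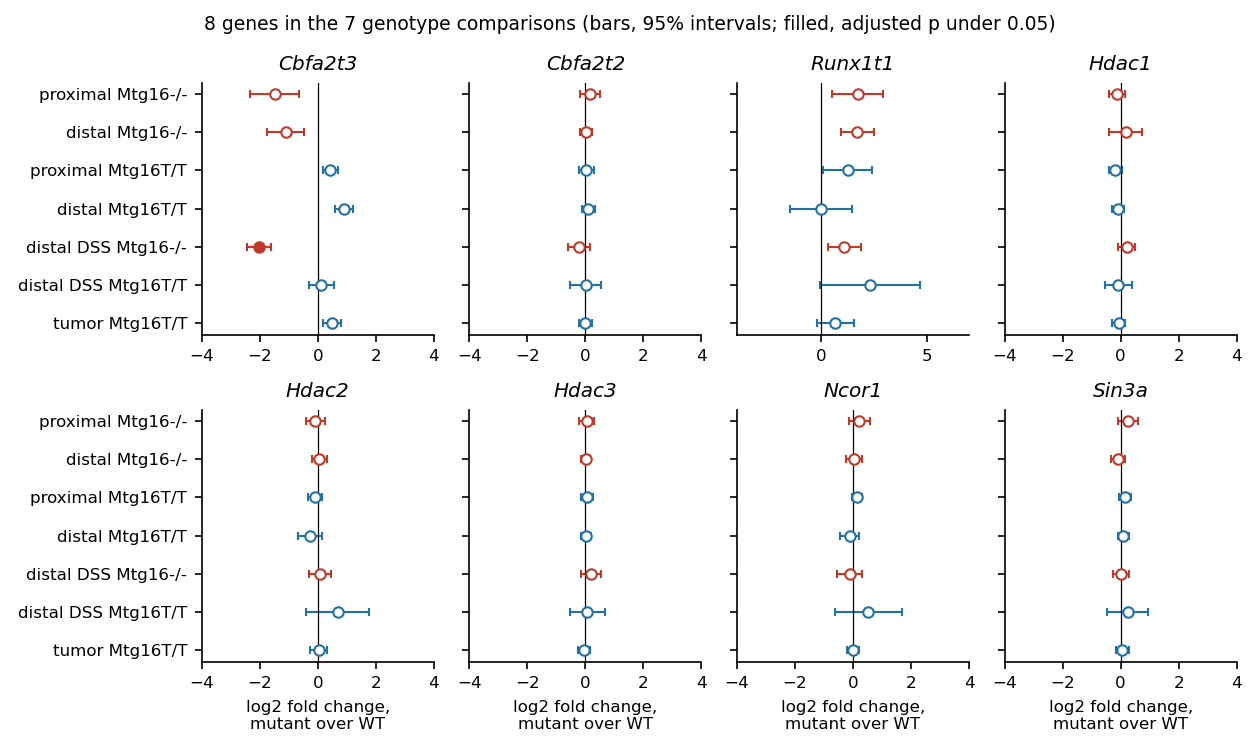
Log2 fold change of each of the 8 genes, mutant over WT, in the 7 genotype comparisons, with bars for the 95% interval of the limma fit. The values of Cbfa2t3 lie below 0 in the Mtg16-/- comparisons and above 0 in the Mtg16T/T comparisons, those of Runx1t1 above 0 in the Mtg16-/- comparisons, and those of the other 6 genes near 0, with wider intervals for Mtg16T/T after DSS.

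Few of the other genes of these complexes were called by genotype. Of 56 listed genes of the NCOR1, SIN3, NuRD and CoREST complexes, the other histone deacetylases and the DNA-binding partners of MTG proteins, 54 or 55 were tested in each genotype comparison, and 0 were called in either direction in all 7 without the block. The median log2 differences of the list lay between −0.04 for tumors and 0.07 after DSS in Mtg16-/-. Without Mtg16-/- baseline replicate 2, again 0 of 54 were called in distal crypts. With same-numbered libraries as blocks after DSS, 1 of 54 was called (Sap30, a SIN3 subunit, 0.53, adjusted p = 0.047), beside 8.78% of all genes. In the average over both distal Mtg16-/- conditions, 1 of 55 rose and none fell. This was Rcor2, the CoREST family scaffold of stem and neural cells, at 0.71 (adjusted p = 0.035), beside 4.57% of all genes in that fit, and at 0.76 (adjusted p = 0.029) without Mtg16-/- baseline replicate 2.

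Hdac1 differed between the colon segments. In WT crypts it was at 10958 to 12149 in 4 proximal libraries and at 4664 to 6076 in 7 distal libraries (median 5528), with no overlap. It was lower distally by a log2 difference of −1.07 (SE 0.07, adjusted p = 3.8e-08, 0.478 of the proximal level), with an exact p = 0.00303, the smallest possible. The call held under all 23 alternatives. T cell markers were lower distally as well (5 of 6 called, sums of 407 to 1436 against 2525 to 3906), and of 7 goblet markers 4 were higher and 2 lower. The part of these cells in the segment differences was not tested. Cbfa2t3 was also lower in distal crypts, at 998 to 1767 (median 1128) against 1515, 2107, 2114 and 3021 (−0.75, SE 0.20, adjusted p = 0.0079, exact p = 0.0152), and the groups overlapped. That call was lost with the sequencing request as a covariate, in the Mtg16-/- colony alone and within request 4149.

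Segment is a strong axis in these data, with 42.1% of genes called, so that 2 of 8 members is no more than the share of all genes. The other 6 genes were not called, among them Cbfa2t2 (0.02, interval −0.17 to 0.21), Hdac2 (0.00, −0.19 to 0.19) and Sin3a (0.11, −0.09 to 0.30). Hdac3 (−0.14, adjusted p = 0.058) and Ncor1 (−0.18, adjusted p = 0.085) were just above the threshold. Ncor1 was called with the length and GC trend removed (−0.20, adjusted p = 0.013). Of the complex genes 14 of 54 were higher and 8 lower in distal crypts, with Zbtb16 (4.81) and Prdm14 (2.32), both DNA-binding factors, highest, and Lmo2 (−1.26) and Hdac7 (−1.0) lowest among those called. The regional pattern of Hdac1 held in mutants as well, since proximal Mtg16-/- and Mtg16T/T libraries were at 9370 to 11501 and distal ones, without the library noted above, at 4402 to 5501.

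**Figure D4:**
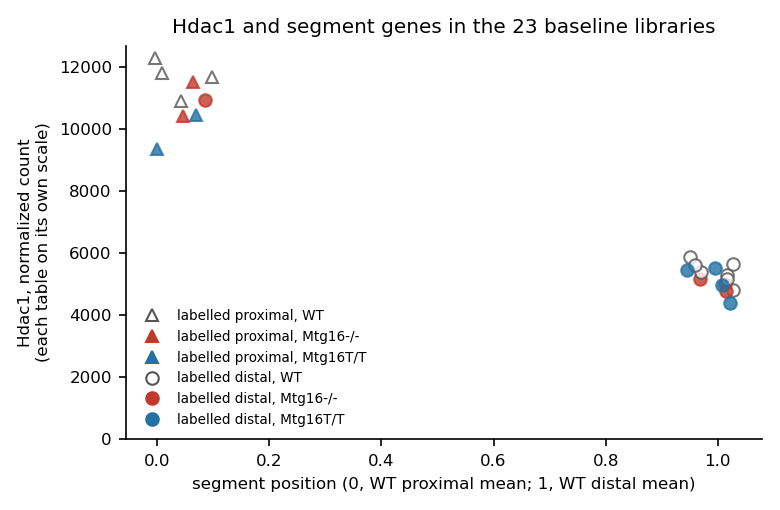
Hdac1 normalized count of each baseline library against its segment position, where 0 is the mean of WT proximal crypts and 1 that of WT distal crypts over 273 regional genes. Distal libraries cluster near 1 at 4402 to 5875 and proximal ones near 0 at 9370 to 12297, and the labelled distal Mtg16-/- replicate 2 lies with the proximal libraries at 0.08 and 10934.

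After DSS, Cbfa2t3 was higher in WT crypts of the Mtg16T/T colony. It was at 2876, 2863 and 2126 against 1089, 1129.7 and 1202 at baseline, a 2.28-fold difference (1.19, SE 0.15, adjusted p = 0.0081, exact p = 0.1, the smallest possible), and the groups did not overlap. Of all genes 35.6% were called. The call held in 5 of 6 fits that each left out 1 library and not without baseline replicate 2 (1.18, adjusted p = 0.053). Goblet cell markers moved the same way, with 5 of 7 higher and 0 lower and sums of 1060700 to 1188810 after DSS against 556625 to 676268 at baseline, and their part in the Cbfa2t3 value was not tested. WT crypts of the Mtg16-/- colony gave no such call in the fit across libraries, at 0.22 (SE 0.23, adjusted p = 0.62, with 6.11% of genes called). The difference between the colonies was itself called, at 1.01 (SE 0.34, adjusted p = 0.033), in a test that called 19.8% of genes. At baseline the WT libraries of the colonies gave 0 calls of 14785 genes (0%), and Cbfa2t3 differed by −0.44 (adjusted p = 1). The DSS libraries of each colony are of a sequencing request of their own, which holds no baseline library, so that the parts of injury and request cannot be told apart.

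In Mtg16-/- crypts Cbfa2t3 was lower after DSS than at baseline (log2 difference −0.67, SE 0.21, adjusted p = 0.018, with 30.8% of genes called). Without baseline replicate 2 this was −0.44 and not called (adjusted p = 0.097), and without DSS replicate 1 it was −0.58 (adjusted p = 0.080). The difference was called under 11 of 15 alternatives in all. In Mtg16T/T crypts the difference was 0.47 (SE 0.23, adjusted p = 0.14, with 19.7% of genes called). The Mtg16-/- libraries after DSS had the lowest Cbfa2t3 mean of all groups with recovered reads. In reads scaled across libraries, group means ran from 488 ± 73.4 (SD, n = 4) there to 3179 ± 140 (SD, n = 3) in Mtg16T/T after DSS. Neighbors in this order from the highest down to distal WT crypts of the Mtg16-/- colony, at 1704 ± 382 (SD, n = 4), were 0.224 to 1.02 pooled SD apart.

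Among the corepressor genes, Hdac2 was lower after DSS in WT crypts of the Mtg16T/T colony, at 738, 677 and 1711 against 2896, 2685 and 2363 (−1.47, SE 0.35, adjusted p = 0.024). Ncor1 was at 3712, 3248 and 8354 against 9436, 9232 and 9221 (−1.0, adjusted p = 0.060), and Sin3a at 1513, 1536 and 2334 against 2859, 2639 and 2477 (−0.59, adjusted p = 0.052). WT DSS replicate 3 lay nearer to the baseline values than the other DSS libraries in all of these, though below each baseline library, and 7 of the 8 members were called without it, in a fit that called 66.9% of all genes. The Hdac2 call was lost when any 1 of the other 5 libraries was left out (adjusted p up to 0.094). The Hdac2 difference was −0.08 (adjusted p = 0.69) once the length and GC trend of each library was removed, whereas that of Cbfa2t3 was 1.06 (adjusted p = 0.0095) and that of Cbfa2t2 became 0.51 (adjusted p = 0.031).

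Between colonies, the WT DSS effect also differed for Hdac2 (−1.62, adjusted p = 0.0025) and Sin3a (−0.66, adjusted p = 0.032), and neither was called after removal of the trend, where the median of all genes was 0.12 (−0.45, adjusted p = 0.098, and −0.29, adjusted p = 0.25). Hdac3 rose after DSS in both mutants, by 0.33 (SE 0.12, adjusted p = 0.037) in Mtg16-/- and by 0.39 (SE 0.13, adjusted p = 0.034) in Mtg16T/T. It was not called in WT crypts of either colony (0.14, adjusted p = 0.59, and 0.29, adjusted p = 0.17), and without Mtg16-/- baseline replicate 2 its adjusted p was 0.057 in Mtg16-/-. The Hdac3 calls were narrow, since they held in 2 of 8 fits for Mtg16-/- and 2 of 7 for Mtg16T/T that each left out 1 library, with adjusted p up to 0.14 (without Mtg16-/- DSS replicate 1) and 0.44 (without Mtg16T/T DSS replicate 3). The DSS effect on Hdac3 was not called as different between mutant and WT in either colony (adjusted p = 1 and 0.94). The Hdac1 difference in Mtg16-/- turned from 0.09 (adjusted p = 0.57) with all libraries to 0.38 (SE 0.11, adjusted p = 0.0098) without that replicate.

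Complex genes were called after DSS at shares below or slightly above those of all genes with all libraries in the fit. In WT of the Mtg16T/T colony 5 of 54 rose and 8 fell (24.1%, against 35.6% of all genes), where Arid4b, a SIN3 subunit, fell by 3.69. In WT of the Mtg16-/- colony 2 rose and 1 fell of 55 (5.45%, against 6.11%). In Mtg16-/- 16 rose and 2 fell (32.7%, against 30.8%), and in Mtg16T/T 7 rose and 4 fell (20%, against 19.7%). NuRD genes gave 6 of the 16 in Mtg16-/- (6 of 9 tested). Lmo2, a partner of MTG16 in blood cell complexes, rose by 5.33 in Mtg16-/- and by 5.32 in WT of the same colony, but by 1.09 in Mtg16T/T and was at 0.50 (adjusted p = 0.44) in WT of that colony, and Bcl6, which recruits corepressors in lymphocytes, rose by 1.44 in Mtg16-/- and by 0.86 in WT of the Mtg16-/- colony. Without Mtg16-/- baseline replicate 2, 18 rose and 3 fell in Mtg16-/- crypts (38.2%, against 30.7% of all genes), and the rise was 5.47 for Lmo2 and 1.35 for Bcl6. All 7 myeloid markers rose with DSS in Mtg16-/-, and 2 of 7 in WT of the Mtg16-/- colony. Their part in the values of Lmo2 was not tested.

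In tumors, compared with distal crypts of the same genotype, 51.1% of genes were called in WT and 55.9% in Mtg16T/T. Hdac2 rose in Mtg16T/T tumors by 0.81 (SE 0.24, adjusted p = 0.0051) and was at 0.50 (adjusted p = 0.11) in WT. Runx1t1 rose by 1.53 (SE 0.59, adjusted p = 0.028) and Cbfa2t3 fell by 0.67 (SE 0.23, adjusted p = 0.013) in Mtg16T/T, with 0.83 (adjusted p = 0.28) and −0.28 (adjusted p = 0.36) in WT. Cbfa2t2 rose in WT tumors by 0.33 (SE 0.13, adjusted p = 0.034). With 1 library left out, and no trend removed, Hdac2 was called in 7 of 7 fits, Cbfa2t3 in 6 of 7 (not without tumor replicate 1, adjusted p = 0.057), Runx1t1 in 5 of 7 (not without baseline replicate 4 or tumor replicate 2, adjusted p = 0.13 in both) and Cbfa2t2 in 1 of 6 (adjusted p up to 0.10). The difference of the Mtg16T/T effect between tumor and baseline was not called for any member.

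These tumor values carry tissue and library differences of their own. All tumor libraries are of a sequencing request that holds no crypt library, so that the parts of tumor and request cannot be told apart. Fibroblast markers summed to 127907 to 179215 in the tumors and to 873 at most in baseline crypts of that colony, and myeloid markers to 23674 to 43567 against 940.5 at most in distal crypts. All tumor libraries had longer transcripts at higher values, by 0.186 to 0.293 on the log2 scale per doubling of length. With that trend removed, the median of all genes was −0.45 in WT and −0.48 in Mtg16T/T tumors, and 69.6% and 72.6% of genes were called. Of the members 6 were called in each genotype, all of them lower. Hdac2 and Runx1t1 were the other two, and their rises in Mtg16T/T tumors were no longer called (0.14, adjusted p = 0.34, and 0.66, adjusted p = 0.21). Cbfa2t3 (−1.35 in WT and −1.63 in Mtg16T/T) and Ncor1 (−1.10 and −1.07) lay below the median of all genes, by a difference of −0.91 and −1.15 for Cbfa2t3 and of −0.65 and −0.59 for Ncor1. Cbfa2t2 changed sign (−0.36 and −0.53), and so did Sin3a, from 0.23 and 0.20 (neither called) to −0.39 and −0.50 (both called), but relative to that median Cbfa2t2 was at 0.08 and −0.06 and Sin3a at 0.06 and −0.02. Of the complex genes 18 rose and 13 fell of 55 in WT tumors, and 20 rose and 12 fell in Mtg16T/T tumors (56.4% and 58.2%), with Lmo2 (6.98 and 5.66), Tal1 (5.53 and 4.51), Rcor2 (2.51 and 2.43) and Hdac7 (2.23 and 1.98) among those that rose.

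**Figure D5:**
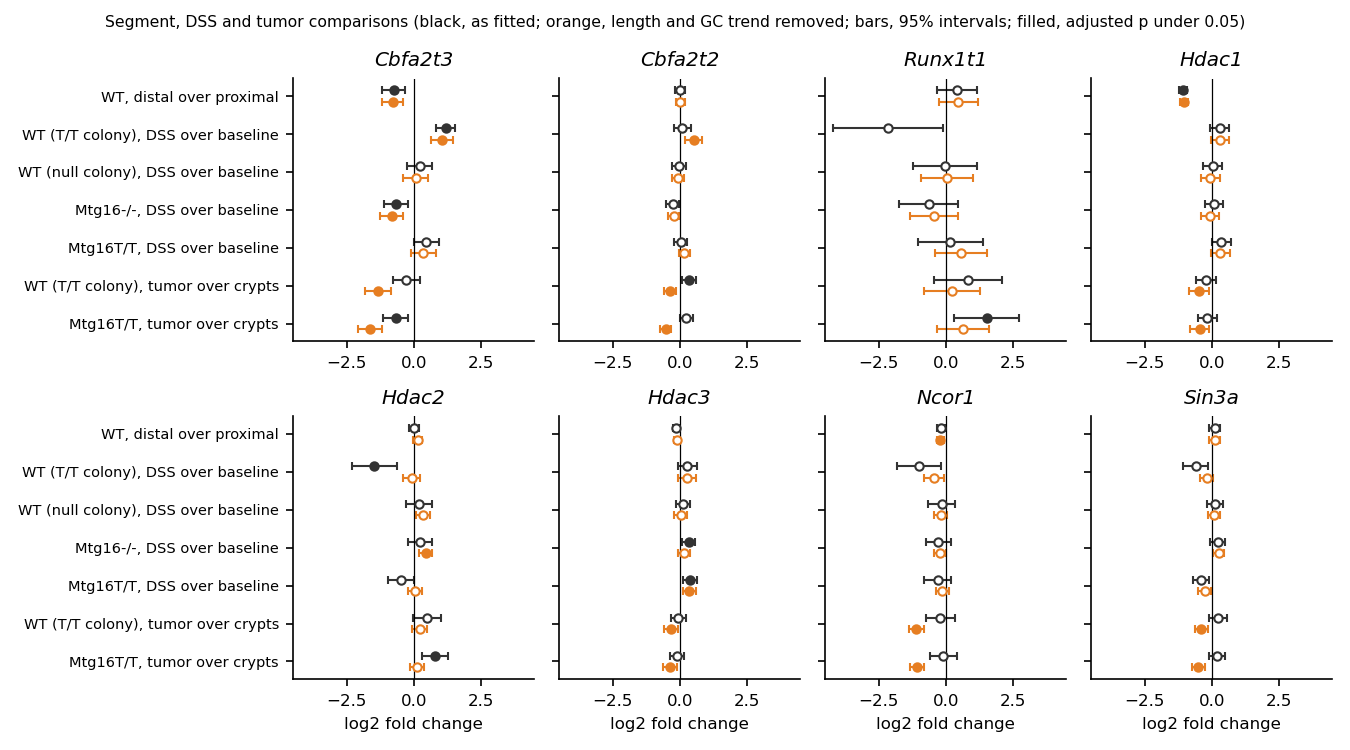
Log2 fold change of each of the 8 genes for segment, DSS and tumor comparisons, with bars for the 95% interval of the limma fit. Examples that stand away from 0 as fitted are Hdac1 in distal against proximal WT crypts (−1.07) and Hdac2 in Mtg16T/T tumors (0.81). After DSS in WT of the Mtg16T/T colony they are Cbfa2t3 (1.19) and Hdac2 (−1.47). With the length and GC trend removed both Hdac2 values lie nearer 0, at 0.14 in the tumors.

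The corepressor genes lie on chromosome 4 (Hdac1), chromosome 10 (Hdac2), chromosome 18 (Hdac3), chromosome 11 (Ncor1) and chromosome 9 (Sin3a). Per length, the 8 genes spanned a wide range. The median over 38 libraries of reads scaled across libraries, per kilobase of the longest coding transcript, was 3283 for Hdac1, 1554 for Hdac3, 1090.1 for Ncor1, 833 for Hdac2 and 571 for Sin3a. Of the MTG family Cbfa2t3 was at 224 and Cbfa2t2 at 186, whereas Runx1t1 was at 3.71. Runx1t1 was therefore far below its paralogs even in Mtg16-/- crypts, where the scaled reads averaged 57.2 ± 15.8 (SD, n = 4) at baseline, beside 813 ± 310 (SD, n = 4) for the remaining Cbfa2t3 reads. Without Mtg16-/- baseline replicate 2 these means were 60.3 ± 17.9 and 675 ± 170 (SD, n = 3).

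Over the 11 WT libraries of both segments, the genes whose log2 levels followed Cbfa2t3 most closely were Crybg2 (Pearson r = 0.972), L1cam (0.964), Crtap (0.956), Top1 (0.955) and Mia3 (0.949) of 11319 genes ranked. Within segments, after removal of each segment's mean, r was 0.889 to 0.959 for these 5. Among the other members r with Cbfa2t3 was 0.732 for Hdac1 but 0.123 within segments, 0.434 for Cbfa2t2 (0.712 within segments) and −0.543 for Hdac2 (−0.788 within segments). It was 0.504 for Ncor1 (0.119 within segments), 0.335 for Hdac3 (−0.476) and 0.060 for Sin3a (0.501). Runx1t1 was not among the genes ranked. These are descriptions over libraries that share colonies, requests and scaling.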

How the data were processed

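Colon crypts and tumors of mice were profiled by poly(A)-selected paired-end RNA sequencing in 42 libraries under 14 conditions. The authors trimmed reads with fastp 0.20.0, quantified them with Salmon 1.3.0 on GENCODE vM21 (GRCm38, mm10) and summed them per gene. The signal values that the authors deposited are these counts divided by a DESeq2 1.26.0 size factor (R 3.6.3) per library, in 9 tables, 1 for each comparison. Fold changes and p-values that the authors deposited in the same tables were not used. All per-sample columns could be mapped.

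In each table, all genes averaging 10 or more normalized counts were tested with limma 3.58.1 (trend method, R 4.3.3) on log2 of the value plus a pseudocount of 1, with Benjamini-Hochberg adjustment over all of them and a threshold of 0.05, and members also with exact two-sided permutation tests. Intervals are 95% intervals of these fits. Values in 56 of 59 library columns gave whole reads within 0.1 for 100% of genes, and a library present in several tables had identical reads in all 16 pairs of tables. This covered 40 libraries. The reads of 38 (median 46659625 per library, without the 4 proximal mutant libraries) were joined, scaled by TMM and fitted together for comparisons across tables, and were used with edgeR 4.0.16 and DESeq2 1.42.0 as alternatives. Counting error is small at these depths except for Runx1t1, and the spread between libraries sets the precision. No pair of libraries had identical values. Differences between effects used both effects and their standard errors, with degrees of freedom by the Welch-Satterthwaite formula. Single comparisons with limma, edgeR and DESeq2, and the removal of a length trend, were tested on simulated counts. The fits across libraries, replicate blocks and differences between effects were not.

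The alternatives were a pseudocount of 0.1, no filter on low values, each library left out, a replicate block, the sequencing request as a covariate or a single colony for the segment comparison, and fits of only the groups compared. A correction for per-library trends with GC content and transcript length, fits within 1 request, the averages over conditions and the colony differences were added after the data were seen. Same-numbered libraries deviated together in the comparison of Mtg16-/- and WT after DSS (correlations 0.554, 0.460 and 0.317), which was taken as pairing from the data, since no label ties a number to a litter or day. Members and lists were chosen with earlier results of these data known. The 8 members are named throughout, other complex genes are at most 4 called genes per list with the largest change, and likeness to Cbfa2t3 was ranked over genes with a mean of at least 100. Rcor2 in the averaged effect and the regional gene Hoxd13 were chosen after their values were seen. Codon sequences were read from the GENCODE vM21 annotation of GRCm38. Some items are not reported here.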

Additional observations from a re-analysis of the deposited data

Results flagged for a closer look

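Within groups of 4 libraries, 2 of 32 groups held a library that lay far from the others for its range. Chance gives about 1 such group in 20. Hdac1 was at 10934 in the labelled distal Mtg16-/- replicate 2, the library with proximal regional genes, and at 4780 to 5154 in the other 3. Hdac2 was at 2749 in distal Mtg16-/- replicate 3, against 2093 to 2180 in the rest of its group.

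Effects that differed between colonies were those of DSS in WT crypts, as Mtg16T/T colony minus Mtg16-/- colony, for Cbfa2t3 (1.01), Hdac2 (−1.62) and Sin3a (−0.66), with adjusted p = 0.033, 0.0025 and 0.032 in limma's fit across libraries. Sequencing request and colony cannot be told apart here. The effect of genotype on Cbfa2t3 after DSS differed between Mtg16-/- and Mtg16T/T by −2.15 (adjusted p = 0.0071).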

How the results depend on the processing

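Of 264 alternative counts of members called, 210 kept within 1.5 times the reported count, 40 gave fewer and 14 gave more calls. Of 2109 alternative values of single members, 54 lost a call, 42 gained a call and 4 reversed, that is, changed sign with a call in either fit. A further 99 changed sign without a call in either fit. By genotype, the count in proximal Mtg16-/- crypts went from 0 to 1 with a replicate block (Cbfa2t3, adjusted p = 0.0075). In distal Mtg16-/- crypts it went from 0 to 2 with DESeq2 (Cbfa2t3 and Runx1t1) and ranged from 0 to 1 with each library left out (1 without Mtg16-/- replicate 2), and in distal Mtg16T/T crypts from 0 to 1 with DESeq2. The Mtg16-/- average of 2 became 1 with a pseudocount of 0.1 and ranged from 1 to 2 with each library left out, and the Mtg16T/T average of 0 became 1 with DESeq2 and with only the groups compared. Without Mtg16-/- baseline replicate 2 the difference of the alleles in distal crypts went from 0 to 1. Distal against proximal WT crypts gave 1 in place of 2 with the request as covariate, in the Mtg16-/- colony alone and within request 4149. For DSS against baseline, leaving out each library gave 0 to 7 (2 reported) in WT of the Mtg16T/T colony, with 0 without WT baseline replicate 2 and 7 without WT DSS replicate 3. It gave 0 to 3 (2 reported) in Mtg16-/-, with 0 without Mtg16-/- DSS replicate 1, and 0 to 4 (1 reported) in Mtg16T/T, with 4 without Mtg16T/T DSS replicate 2. Fits of only the 2 groups gave 1 in Mtg16-/- and 0 in Mtg16T/T, and the replicate block gave 0 in both, with Cbfa2t3 in Mtg16-/- at −0.65 (adjusted p = 0.10). WT tumors (1 reported) gave 0 to 1 with each library left out, 3 with only the 2 groups, 3 with the replicate block and 6 with the length and GC trend removed, and Mtg16T/T tumors (3 reported) gave 5 with only the 2 groups and 6 with the trend removed. With the trend removed Cbfa2t2 reversed to −0.36 in WT and −0.53 in Mtg16T/T tumors, and Sin3a to −0.39 and −0.50, in fits where the median of all genes was −0.45 and −0.48. The replicate block changed no other call. The causes were not tested. Fits with edgeR and DESeq2 were not run for proximal mutants, where reads of replicate 2 of each mutant were not recovered, and Runx1t1, at 1.03 to 103 normalized counts, is where depth limits most.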
